A study of Rattus norvegicus with 35 samples.

Results

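The chemokines Cxcl9, Cxcl10 and Cxcl11 and their shared receptor Cxcr3 were followed in the lungs of rats that had been given either of 2 carbon nanotube materials. The members are the 4 genes whose names stand on non-control probes of the array, each with 1 probe and 1 spot, among 34766 gene names on the array, and all 4 passed the filter that left 24468 genes for testing. Total RNA from the accessory lobe of the lung was hybridised to single-colour Agilent rat arrays, 1 array for each of 35 female Sprague Dawley rats. The rats were 12 weeks old when treatment began, were instilled through the trachea once a week for 4 weeks, and were examined on day 3 after exposure. Animals were wild type (WT) or GMO, a genetically modified line that carries its altered allele in the heterozygous state. The 6 groups were WT given Mitsui-7 (n = 6), WT given NM-403 (n = 6), WT given vehicle (n = 6), GMO given Mitsui-7 (n = 6), GMO given NM-403 (n = 5) and GMO given vehicle (n = 6). Mitsui-7 and NM-403, both multi-walled carbon nanotube materials, were given at 0.25 mg per rat, the vehicle was Pluronic, a surfactant used to disperse particles, and the vehicle groups are called controls.

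CXCL9, CXCL10 and CXCL11 are small secreted proteins that attract cells bearing the receptor CXCR3, a G protein-coupled receptor carried mainly by activated T cells and natural killer cells. In man and mouse the 3 ligand genes are classic targets of interferon gamma, which acts through JAK kinases and IRF1, and Cxcl10 and Cxcl11 also respond strongly to type I interferon, to double-stranded RNA and to NF-kB signals. In lung they are made by macrophages, epithelium and endothelium during viral infection, granulomatous disease and particle-induced inflammation.

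The probes define what each value stands for, so those of Cxcl9, Cxcl11 and Cxcr3 are printed 5′ to 3′ as the array files give them, on the rn4 build of the rat genome that the file headers name.
Cxcl9, chr14:17288831-17288890, plus strand: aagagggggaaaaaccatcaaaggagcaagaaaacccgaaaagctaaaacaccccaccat
Cxcl11, chr14:17252192-17252251, plus strand: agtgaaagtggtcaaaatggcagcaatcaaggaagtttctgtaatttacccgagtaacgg
Cxcr3, chrX:89794887-89794946, minus strand: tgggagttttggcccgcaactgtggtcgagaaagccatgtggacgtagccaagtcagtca
The Cxcl10 probe lies between those of the other ligands, at chr14:17267994-17268053 on the plus strand. Each probe is 60 bases long.

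The 3 ligand genes lie side by side on chromosome 14 and are transcribed in the same direction. Their promoter windows are shown because the ligands did not behave alike. Each runs from 250 bases before to 50 bases after the annotated start and comes from RefSeq on the GRCr8 build. Capitals mark every match, on either strand, to 4 motifs. These were the interferon-stimulated response element, ISRE, searched as GAAANNGAAA, the gamma-activated site, GAS, searched as TTCNNNGAA, the NF-kB consensus, and the TATA box, searched as TATAAA.
Cxcl10, chr14:15988816-15989115, plus strand: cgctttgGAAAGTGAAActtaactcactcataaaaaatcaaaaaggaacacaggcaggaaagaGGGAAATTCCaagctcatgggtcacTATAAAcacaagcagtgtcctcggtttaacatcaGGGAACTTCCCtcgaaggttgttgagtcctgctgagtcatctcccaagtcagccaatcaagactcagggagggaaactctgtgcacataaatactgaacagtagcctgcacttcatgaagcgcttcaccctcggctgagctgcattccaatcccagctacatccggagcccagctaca
Cxcl11, chr14:15973478-15973777, plus strand: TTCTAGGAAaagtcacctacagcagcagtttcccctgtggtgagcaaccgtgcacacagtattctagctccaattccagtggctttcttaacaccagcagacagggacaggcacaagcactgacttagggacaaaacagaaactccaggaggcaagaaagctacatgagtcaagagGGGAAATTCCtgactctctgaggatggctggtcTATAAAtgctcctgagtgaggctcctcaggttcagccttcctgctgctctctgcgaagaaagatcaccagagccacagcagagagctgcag
Cxcl9, chr14:16006916-16007215, plus strand: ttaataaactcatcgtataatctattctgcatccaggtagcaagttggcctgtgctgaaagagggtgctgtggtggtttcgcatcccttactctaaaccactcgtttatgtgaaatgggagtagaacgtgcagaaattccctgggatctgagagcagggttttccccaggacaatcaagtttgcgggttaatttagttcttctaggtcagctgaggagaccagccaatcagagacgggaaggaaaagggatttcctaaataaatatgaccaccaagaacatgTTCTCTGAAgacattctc
The Cxcl10 window holds 1 ISRE, GAAAGTGAAA, from base -243 to base -234 relative to the start, and 2 NF-kB positions. At the first of these, GGGAAATTCC, the match stands from base -187 to base -178. At the second, GGGAACTTCC on the plus strand from base -128 to base -119 overlaps a match on the other strand that is shifted by 1 base. The Cxcl11 window holds the same 10 letters, GGGAAATTCC, from base -74 to base -65, a TATA box from base -41 to base -36, and a GAS, TTCTAGGAA, at its outer edge. The Cxcl10 window also holds the letters TATAAA, from base -162 to base -157, between its 2 NF-kB positions. The Cxcl9 window holds no NF-kB consensus, ISRE or TATA match by these letters. Its only match is a GAS, TTCTCTGAA, from base 33 to base 41 after the start. The Cxcr3 window on chromosome X holds none of the 4 motifs. Among 33469 RefSeq promoter windows of the same length, 3.92% held the ISRE, 8.87% the GAS, 7.51% the NF-kB consensus and 14.2% the TATA box. These matches are letters in a window and say nothing of binding, and their part in the levels was not tested.

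Levels are given as log2 of the processed signal minus the array's own 75th percentile, so that 0 stands for a spot at that percentile and each unit below it for a halving. They compare one gene between rats, not one gene with another. Between 66.1% and 86.4% of spots were well above background on an array, and 1 array, WT Mitsui-7 replicate 5, stood apart at the upper end. The arrays came from 5 slides scanned on 3 days, and arrays of the same slide resembled each other more than others did (mean correlation of their deviations 0.222 against -0.0815). Differences within slides are therefore given for each member. All 8 marker genes of alveolar type 2 cells were above background on all 35 arrays. Cxcl9, Cxcl10 and Cxcr3 were well above background on all 35 arrays, and Cxcl11 only in part of them, as described below. In whole tissue, more cells that make a transcript and more of it in each cell cannot be told apart.

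**Figure D1:**
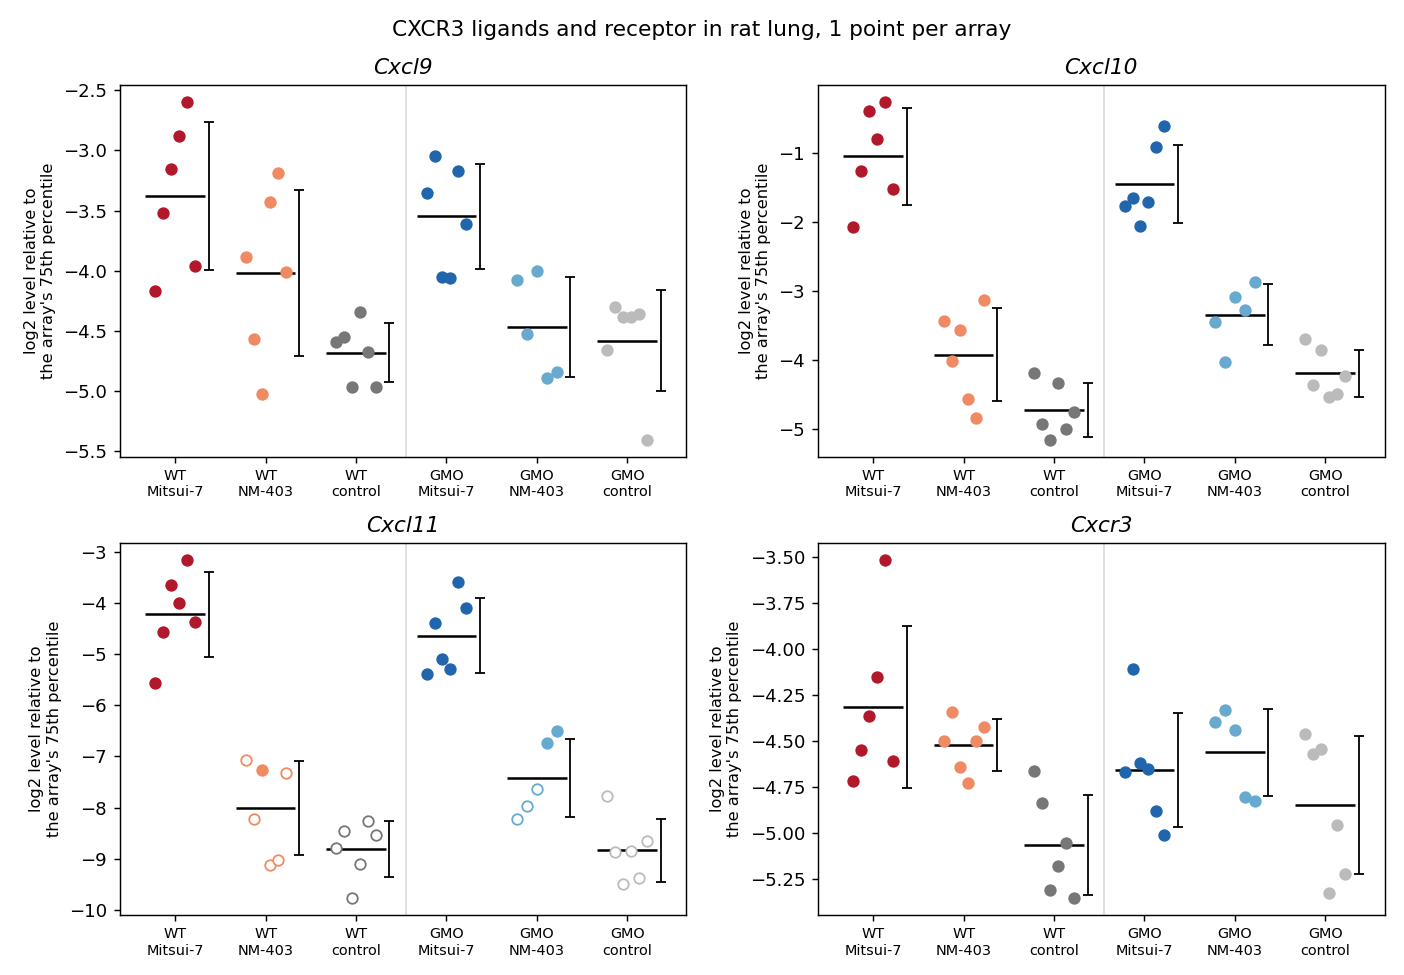
Log2 level of each member relative to the array's 75th percentile (vertical axes, own scale for each gene), with 1 point per rat for the 6 groups named along the horizontal axes. Filled points were well above background and open points were not; horizontal lines are group means and error bars standard deviations. Cxcl10 and Cxcl11 of the Mitsui-7 groups sit above all other groups of the same genotype.

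Cxcl10, the best known interferon-inducible ligand of CXCR3, rose with Mitsui-7 in both genotypes. In WT Mitsui-7 lungs its level was -2.08 at the lowest, -1.03 at the median and -0.26 at the highest, against -5.16, -4.84 and -4.19 in WT control lungs. The groups did not overlap, and the whole Mitsui-7 range lay more than 2 log2 units above the highest control. The means were -1.05 ± 0.70 in WT Mitsui-7 lungs and -4.73 ± 0.39 in WT control lungs (SD, n = 6 each), a difference of 3.67 ± 0.30 (SE), or 12.8-fold (limma, adjusted p = 1.91e-10). In the GMO rats the lowest, median and highest levels with Mitsui-7 were -2.06, -1.68 and -0.61, against -4.54, -4.30 and -3.70 in GMO control lungs. Here too every exposed rat lay above every control. The difference was 2.74 ± 0.30, or 6.69-fold (limma, adjusted p = 1.05e-07). Within slides the Mitsui-7 difference ran from 2.93 to 3.86 over 4 slides in WT rats and from 1.90 to 3.34 over 5 slides in GMO rats.

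Cxcl11, which binds CXCR3 most tightly of the 3 ligands in man, changed its state of detection. It was well above background in 6 of 6 WT Mitsui-7 lungs and 6 of 6 GMO Mitsui-7 lungs, against 0 of 6 WT control lungs and 0 of 6 GMO control lungs. In WT Mitsui-7 lungs its level was -5.56 at the lowest, -4.20 at the median and -3.17 at the highest, against -9.76, -8.67 and -8.26 in WT control lungs. The same 3 values in GMO Mitsui-7 lungs were -5.39, -4.75 and -3.59, against -9.49, -8.85 and -7.77 in GMO control lungs. The groups were separate in both genotypes. Because control signals were not well above background, the fold is a bound on the processed signal. It was set by each array's weakest signal, of any probe, that was well above background. On that scale Cxcl11 was at least 11.0-fold higher in WT Mitsui-7 lungs than in WT control lungs (means -4.22 and -8.82, limma, adjusted p = 1.36e-09). It was at least 7.76-fold higher in GMO Mitsui-7 lungs than in GMO control lungs (means -4.64 and -8.83, limma, adjusted p = 1.19e-08). Within slides the Mitsui-7 arrays were the higher in 4 of 4 slides in WT rats and in 5 of 5 in GMO rats. The fitted sizes and the bounds depend on how background is treated. With the normexp correction and an offset of 50, which pulls weak signals together, the fitted differences were 1.25 in WT and 0.88 in GMO rats. They were 4.59 and 4.19 without it, and still passed with it (limma, adjusted p = 1.01e-05 and 0.00166). The normexp differences lie below the bounds, which are 3.46 and 2.96 on the log2 scale, so the bounds hold for the processed signal only.

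Cxcl9, in mouse the ligand most dependent on interferon gamma, rose less. In WT Mitsui-7 lungs its level was -4.17 at the lowest, -3.34 at the median and -2.60 at the highest, against -4.97, -4.63 and -4.34 in WT control lungs. The lowest exposed rat lay just above the highest control. The difference was 1.30 ± 0.28, or 2.46-fold (limma, adjusted p = 0.00132), and 0.81 with normexp (limma, adjusted p = 0.00445). In GMO Mitsui-7 lungs the values were -4.06, -3.48 and -3.05, against -5.40, -4.39 and -4.31 in GMO control lungs, again without overlap. The difference was 1.03 ± 0.28, or 2.05-fold (limma, adjusted p = 0.0123), and with normexp it was 0.58 and no longer passed (limma, adjusted p = 0.0656). Within slides it ran from 0.95 to 1.69 in WT rats and from 0.25 to 1.32 in GMO rats.

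Cxcr3, the receptor, moved least. In WT Mitsui-7 lungs its level was -4.72 at the lowest, -4.46 at the median and -3.52 at the highest, against -5.35, -5.12 and -4.66 in WT control lungs. Only 1 exposed rat, at the lowest value, fell within the control range. The difference of 0.75 ± 0.18, or 1.68-fold, passed the test (limma, adjusted p = 0.00388), and was 0.47 with normexp (limma, adjusted p = 0.0157). In GMO Mitsui-7 lungs the values were -5.01, -4.66 and -4.11, against -5.33, -4.76 and -4.46 in GMO control lungs, and the groups overlapped widely. The difference there was 0.19 ± 0.18, with a 95% interval from -0.17 to 0.55 (limma, adjusted p = 0.568). Within slides the difference ran from 0.12 to 1.29 in WT rats and from -0.34 to 0.85 in GMO rats.

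WT Mitsui-7 replicate 5, the array with the most spots above background, had the highest value of its group for all 4 members, and replicate 1 the lowest. Without replicate 5 the WT Mitsui-7 differences were 1.14 for Cxcl9, 3.52 for Cxcl10, 4.38 for Cxcl11 as fitted and 0.59 for Cxcr3, and the largest adjusted p of the 4 was 0.0174 in limma. Thus 4 of the 4 members were called higher in WT Mitsui-7 lungs than in WT control lungs, where 8.42% of all genes tested were called higher. In GMO Mitsui-7 lungs 3 of 4 were called higher than in GMO control lungs, where 5.29% of all genes were. The ranges did not overlap for the 3 ligands in either genotype, against 4.52% of all genes in WT rats and 2.73% in GMO rats. For each of these 6 differences the two-sided exact permutation test over rats gave p = 0.0022, the smallest it allows with 6 against 6. It was one of 36 such tests of members, and these p-values are not adjusted.

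With NM-403 none of the 4 genes passed the test in either genotype. In WT NM-403 lungs the difference from WT control lungs was 0.67 ± 0.28 for Cxcl9, 0.80 ± 0.30 for Cxcl10, 0.81 ± 0.41 for Cxcl11 and 0.54 ± 0.18 for Cxcr3 (limma, adjusted p = 0.224, 0.162, 0.362 and 0.0921 in that order). In GMO NM-403 lungs it was 0.11 ± 0.29, 0.85 ± 0.32, 1.42 ± 0.43 and 0.29 ± 0.19 for the same genes (limma, adjusted p = 0.916, 0.221, 0.106 and 0.582). The Cxcl11 values are those of the fit, with controls not well above background. With array weights, which count arrays of larger residual spread for less, 3 of these 8 differences passed: Cxcl9 in WT rats at 0.81, and Cxcl10 at 0.94 and Cxcl11 at 1.92 in GMO rats (limma, adjusted p = 0.0437, 0.0462 and 0.00498). With slide as a random block Cxcr3 in WT rats passed at 0.55 (limma, adjusted p = 0.0482). With normexp none passed, and Cxcl11 in GMO rats differed by -0.09 (limma, adjusted p = 0.769). Within slides the WT difference ran from -0.06 to 1.28 for Cxcl9, from -0.52 to 1.62 for Cxcl10 and from 0.05 to 0.93 for Cxcr3 over 5 slides. The GMO difference ran from -0.58 to 0.36, from 0.52 to 1.41 and from -0.24 to 0.93 for the same genes over 4 slides. Cxcl11 was the higher with NM-403 in 4 of 5 slides in WT rats and in 4 of 4 in GMO rats. So 0 of 4 members were called in WT rats, where 2.30% of all genes were called higher, and 0 of 4 in GMO rats, where 1.27% were. No member had ranges without overlap, against 1.77% and 1.16% of all genes.

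The individual values show how the NM-403 groups lie against control. Cxcl10 in WT NM-403 lungs was -4.85 at the lowest, -3.79 at the median and -3.13 at the highest, and 4 of 6 rats lay above every WT control. In GMO NM-403 lungs it was -3.46, -4.02, -3.09, -3.28 and -2.87, and 4 of 5 lay above every GMO control, whose highest value was -3.70. Cxcl11 in GMO NM-403 lungs was -8.22, -7.97, -7.64, -6.74 and -6.50, and the last 2 of these were well above background, against 1 of 6 WT NM-403 lungs. Exact permutation tests of these single genes, unadjusted, gave p = 0.011 for Cxcl10 and p = 0.0087 for Cxcl11 in GMO rats and p = 0.037 and p = 0.093 in WT rats. Cxcl9 in WT NM-403 lungs spread from -5.03 over a median of -3.95 to -3.19, which takes in the whole WT control range. Of these 6 rats 4 lay above every WT control and 1 below (exact permutation p = 0.058, unadjusted). In GMO NM-403 lungs Cxcl9 was -4.08, -4.52, -4.01, -4.89 and -4.84, within the range of the GMO controls apart from the 2 highest. Cxcr3 in WT NM-403 lungs lay between -4.73 and -4.34 with a median of -4.50, and 5 of 6 rats were above every WT control (exact permutation p = 0.0043, unadjusted). In GMO NM-403 lungs it was -4.40, -4.33, -4.44, -4.81 and -4.82, and 3 of 5 lay above every GMO control.

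The materials, given at the same dose and time, were compared directly. Cxcl10 was 2.87 ± 0.30 higher in WT Mitsui-7 than in WT NM-403 lungs, or 7.33-fold (limma, adjusted p = 1.40e-07), and 1.89 ± 0.32 higher in GMO Mitsui-7 than in GMO NM-403 lungs, or 3.70-fold (limma, adjusted p = 4.10e-04). Cxcl11 was 3.78 ± 0.41 higher in WT Mitsui-7 than in WT NM-403 lungs (limma, adjusted p = 2.96e-07) and 2.77 ± 0.43 higher in GMO Mitsui-7 than in GMO NM-403 lungs (limma, adjusted p = 1.64e-04), with most NM-403 signals not well above background. With normexp these Cxcl11 differences were 0.98 in each genotype and still passed (limma, adjusted p = 0.00126 in WT and 0.00327 in GMO rats). Within slides Cxcl10 differed by 2.24 to 3.45 in WT and by 1.38 to 2.26 in GMO rats, and Cxcl11 by 3.05 to 4.50 and by 1.45 to 3.47, over 4 slides each. For both genes every Mitsui-7 rat lay above every NM-403 rat of its genotype. Cxcl9 differed by 0.64 ± 0.28 in WT rats, with a 95% interval from 0.07 to 1.20 (limma, adjusted p = 0.280), and by 0.92 ± 0.29 in GMO rats, with an interval from 0.32 to 1.52 (limma, adjusted p = 0.136). The GMO difference passed with array weights, at 1.1 (limma, adjusted p = 0.0132). Within slides it ran from -0.21 to 1.01 in WT and from 0.60 to 0.96 in GMO rats. Cxcr3 differed by 0.20 ± 0.18 in WT rats, with an interval from -0.16 to 0.57, and by -0.10 ± 0.19 in GMO rats, with an interval from -0.48 to 0.29. Within slides the receptor's difference ran from -0.20 to 0.36 and from -0.44 to 0.33. Called higher were 2 of 4 members in WT rats, where 2.78% of all genes were, and 2 of 4 in GMO rats, where 1.09% were. The ranges of the same 2 members did not overlap, against 1.92% and 1.52% of all genes.

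**Figure D2:**
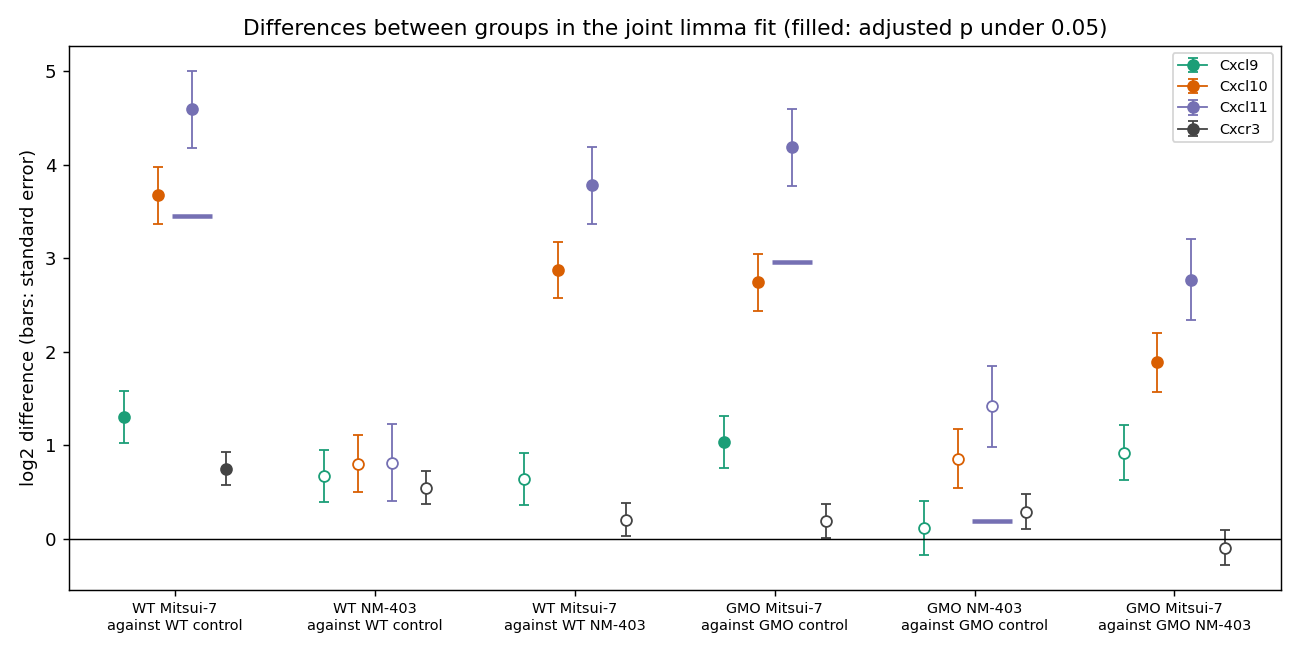
Log2 difference between groups for the 4 members (vertical axis, with standard errors as bars) in the 6 comparisons named along the horizontal axis. Filled points passed an adjusted p of 0.05 and open points did not. The thick purple ticks are the lower bounds for Cxcl11 on the processed signal, where control signals were not well above background. Cxcl10 and Cxcl11 stand apart in the comparisons that hold Mitsui-7 and not in those of NM-403 with control.

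No member passed the test between genotypes. Cxcl10 was 0.53 ± 0.30 higher in GMO than in WT control lungs, 0.40 ± 0.30 lower in GMO Mitsui-7 than in WT Mitsui-7 lungs (difference -0.40), and 0.58 ± 0.32 higher in GMO NM-403 than in WT NM-403 lungs (limma, adjusted p = 1.00, 1.00 and 0.741). The GMO rise with Mitsui-7 minus the WT rise was -0.93 ± 0.43 for Cxcl10, with a 95% interval from -1.81 to -0.06, and -0.56 ± 0.25 for Cxcr3, with an interval from -1.07 to -0.04. Those unadjusted intervals leave out 0, but after adjustment over all genes neither passed (limma, adjusted p = 1.00 for both). For Cxcl9 the same interaction was -0.27 ± 0.39 and for Cxcl11 -0.41 ± 0.59. Across all genes the genotype comparisons called 0% in controls, 0.00817% (2 genes) with Mitsui-7 and 0% with NM-403 in limma, and the interactions called 0% with Mitsui-7 and 0% with NM-403. At an unadjusted p under 0.05 the 5 counts were 483, 1287, 1038, 729 and 412 genes in the same order. The receptor thus passed in WT rats and not in GMO rats with Mitsui-7, while the difference between the genotypes itself did not pass.

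Cxcl10 and Cxcl9 were set against each other within each array, a comparison chosen after the values were seen. The Cxcl10 level minus the Cxcl9 level lay between 2.09 and 2.76 in WT Mitsui-7 lungs, against -0.38 to 0.40 in WT control lungs. In GMO Mitsui-7 lungs it lay between 1.39 and 3.00, against -0.15 to 1.17 in GMO control lungs. The mean difference between exposed and control lungs was 2.37 in WT and 1.71 in GMO rats with Mitsui-7, and 0.14 and 0.74 with NM-403. These values follow from the separate changes of both genes given above. Because the comparison was chosen after the values were seen, no p-value is given for it. They show unequal change on the log2 scale, and probes can differ in how steeply they respond, which was not tested.

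Pooled over the groups, Cxcl10 and Cxcl11 varied together among rats of the same group, while Cxcl9 varied with them in some groups and against them in others. After each group's mean was removed, the 35 arrays gave a Pearson correlation of 0.760 and a Spearman correlation of 0.741 between Cxcl10 and Cxcl11. The permutation p was 2e-05 for each, from 100000 permutations within groups. Without the 2 arrays farthest from the median it was 0.726, with slide means removed 0.792, and without WT Mitsui-7 replicate 5 it was 0.737. In single groups of 6 rats the Pearson correlation ran from 0.067 in WT control lungs, where Cxcl11 was not well above background, to 0.964 in WT Mitsui-7 lungs. It was 0.808 in GMO Mitsui-7 lungs, where Cxcl11 was well above background in 6 of 6. In WT NM-403 lungs it was 0.949 with Cxcl11 well above background in 1 of 6, and in GMO NM-403 lungs 0.666 with 2 of 5. In GMO control lungs it was 0.447 with 0 of 6. The pooled correlations with Cxcl11 thus rest in part on signals not well above background. The corresponding Pearson correlation of Cxcl9 was 0.144 with Cxcl10 (rho = 0.113, permutation p = 0.50 and 0.58) and -0.017 with Cxcl11 (rho = -0.068, permutation p = 0.93 and 0.74). With slide means removed these 2 correlations were 0.146 and 0.157. The pooled values average groups of opposite sign, which were not tested singly. With Cxcl10 the correlation was 0.934 in WT Mitsui-7 and -0.598 in WT NM-403 lungs, and with Cxcl11 it was 0.886 and -0.634 in the same groups (6 rats each). Cxcl9 and the receptor gave r = 0.472 and rho = 0.452 (permutation p = 0.0057 and 0.0082), 0.442 without the 2 farthest arrays, 0.607 with slide means removed and 0.376 without WT Mitsui-7 replicate 5. In single groups of 6 rats this correlation ran from -0.161 in WT NM-403 to 0.898 in WT Mitsui-7 lungs. The correlation of Cxcr3 with Cxcl10 and Cxcl11 was 0.808 and 0.832 in WT Mitsui-7 lungs, but -0.630 and -0.262 in GMO Mitsui-7 lungs. It was -0.680 and -0.967 in the 5 GMO NM-403 lungs, and positive for both ligands in WT NM-403 lungs and in both control groups. Over all groups Cxcr3 gave r = 0.254 with Cxcl10 (rho = 0.206, permutation p = 0.19 and 0.25) and r = 0.174 with Cxcl11 (rho = 0.085, permutation p = 0.35 and 0.64). These are the 6 pairs computed, and their p-values are not adjusted.

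**Figure D3:**
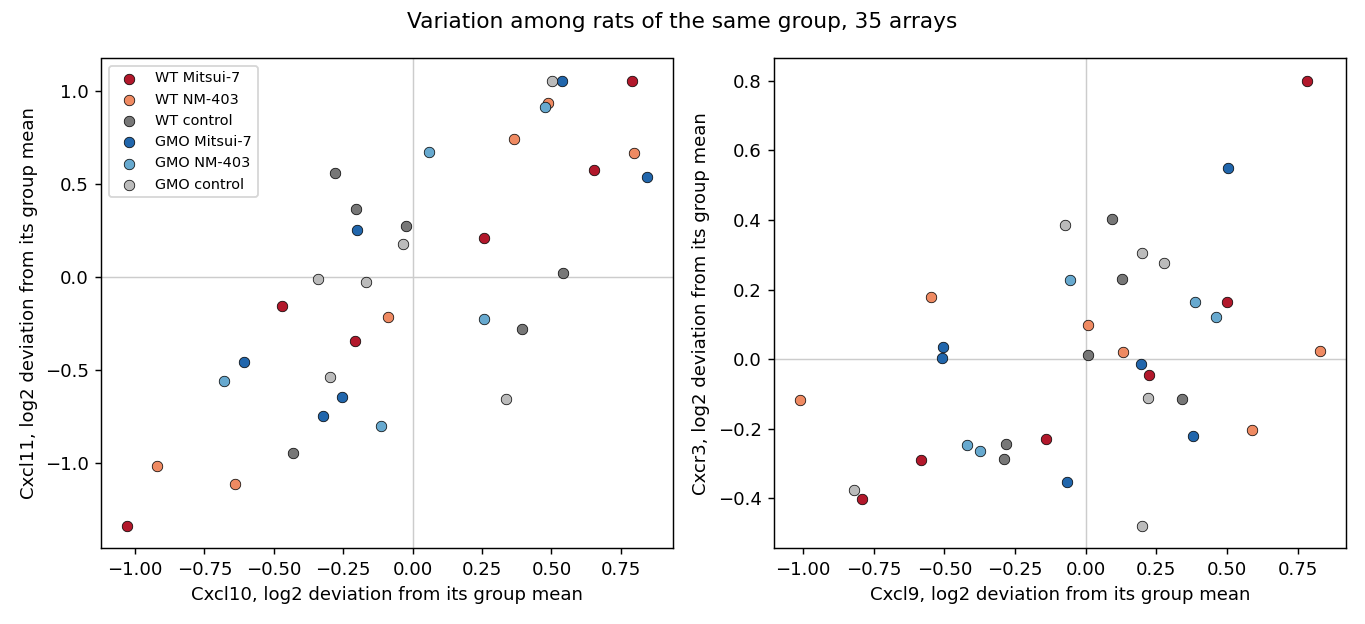
Deviation of each rat from its group mean on the log2 scale, for Cxcl11 (vertical) against Cxcl10 (horizontal) on the left and for Cxcr3 (vertical) against Cxcl9 (horizontal) on the right, with 35 arrays coloured by group. The left panel shows the correlation of 0.760 and the right panel that of 0.472.

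In the WT NM-403 group, replicates 4 and 5, the only arrays of that group on their slide, had the highest Cxcl9 of their group, -3.43 and -3.19, and the lowest Cxcl10, -4.57 and -4.85. Their Cxcl11, at -9.12 and -9.02, was the lowest of the group as well and not well above background. Within this group rat and slide cannot be told apart. In WT Mitsui-7 rats, by contrast, all 4 members ranked the rats nearly alike. The slide of WT NM-403 replicates 4 and 5 also held arrays of other groups. On it Cxcl10 was -4.19 in WT control replicate 1, the highest of that group, and -1.26 in WT Mitsui-7 replicate 2. It was -3.86 in GMO control replicate 3 and -0.92 in GMO Mitsui-7 replicate 5. Cxcl11 was -8.79, -4.56, -9.49 and -3.59 in the same order. Of these, -9.49 was the lowest GMO control and -3.59 the highest GMO Mitsui-7 value. The part of the slide was not tested.

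By the rule that names the 5 most similar of 15719 genes, Cxcl10 and Cxcl11 were each other's nearest over all 35 arrays (r = 0.967), and both were followed by Slc2a6, a hexose transporter of the lysosome of macrophages in mouse (r = 0.951 with Cxcl10 and 0.959 with Cxcl11). Pla2g7, which encodes platelet-activating factor acetylhydrolase, followed, at 0.945 with Cxcl11 and 0.936 with Cxcl10. Slamf9 and P2ry6, a receptor for uridine nucleotides, completed the list of Cxcl10, and Pdlim4 and Ern2 that of Cxcl11. Such correlations share the group differences and arrays, and are descriptions. With group means removed, Cxcl10 was nearest to Cxcl11, then to Rsad2 (0.723), Mx1 (0.655) and Isg15 (0.631), all antiviral genes induced by interferon, and to Slc2a6 (0.628). Cxcl11 was nearest to Cxcl10, then to Slc2a6 (0.700), Ccl12, a monocyte-attracting chemokine (0.664), and Slc28a2 (0.603).

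Cxcl9 had other neighbours. Over all arrays these were Cstb, a cathepsin inhibitor (0.889), Cd53 (0.889), Slc15a3 (0.879), Aldh1l2 (0.878) and Kcnk13 (0.873). With group means removed they were Caskin1 (0.835), Ak4 (0.834), Spic, a transcription factor of red pulp macrophages in mouse (0.822), Siglec1, the macrophage receptor sialoadhesin (0.803), and Cstb (0.802). For Cxcr3 the nearest genes over all arrays were Slfn4 (0.755), Ticrr (0.726), Depdc1b (0.724), Dhx58, an RNA sensor of the RIG-I family (0.717), and Clec5a (0.714). With group means removed they included Lck (0.645) and Cd5 (0.610), a kinase and a surface protein of T cells, besides Nat8 (0.634), Ube2q2l (0.598) and Slfn4 (0.589).

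Of the genes beside the ligands on chromosome 14, Sdad1 rose slightly in both genotypes with Mitsui-7 and Art3 fell in WT rats. In RefSeq order the protein-coding genes run Scarb2, Nup54, Art3, Cxcl11, Cxcl10, Cxcl9, Sdad1, Naaa and Ppef2, and the span of Art3 takes in Cxcl11 and Cxcl10. Art3, an ADP-ribosyltransferase relative, fell with Mitsui-7 in WT rats, at -2.58 ± 0.24 in WT Mitsui-7 lungs and -1.71 ± 0.34 in WT control lungs (SD, n = 6 each; log2 difference -0.87, limma, adjusted p = 0.00225), and its difference in GMO rats was -0.44 (limma, adjusted p = 0.153). Sdad1, next to Cxcl9, rose by 0.36 in WT rats and 0.39 in GMO rats with Mitsui-7 (limma, adjusted p = 0.0169 and 0.0117). Scarb2 and Nup54 were not called in either genotype with Mitsui-7, and Naaa was not called in WT rats and fell by 0.54 in GMO rats (limma, adjusted p = 0.0496). Ppef2 was not well above background in any Mitsui-7 lung. These genes were chosen after the members' values were seen.

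Interferon gamma itself was near the limit of detection. Ifng was well above background on 1 of 6 WT Mitsui-7 arrays and on none of the arrays of the other 5 groups, so it was not tested. Its level had a median of -7.61 in WT Mitsui-7 lungs, against -9.08 in WT control lungs, and of -9.11 in GMO Mitsui-7 lungs, against -8.66 in GMO control lungs. Irf1, a transcription factor that carries its signal, was not called: it differed by -0.05 in WT and by -0.11 in GMO rats with Mitsui-7 (limma, adjusted p = 0.856 and 0.642).

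Of the 16 tested genes of the interferon gamma axis, 4 were higher and 0 lower in WT Mitsui-7 lungs than in WT control lungs, with a median of 0.23 against 0.03 over all genes. They were Il12b, a subunit of interleukin-12 (2.08, well above background in 6 of 6 exposed and 2 of 6 control lungs), Irf8, a transcription factor of macrophages and dendritic cells (0.88), Cxcr6, a chemokine receptor of T cells (0.73), and the kinase Jak2 (0.34). Among GMO Mitsui-7 lungs 1 was higher, Irf8 at 0.29, and 1 was lower, Ifngr1, a subunit of the interferon gamma receptor, at -0.24. In WT NM-403 lungs 2 were higher, Il12b at 1.54 and Irf8 at 0.40, and in GMO NM-403 lungs none passed. All genes together were called higher at 8.42% and lower at 5.56% in WT Mitsui-7 lungs, and at 5.29% and 6.29% in GMO Mitsui-7 lungs. They were called higher at 2.30% and lower at 0.899% in WT NM-403 lungs, and at 1.27% and 0.253% in GMO NM-403 lungs, each against its own control.

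Of 18 target genes of interferon gamma, 6 were higher and 1 lower in WT Mitsui-7 lungs than in WT control lungs, and 3 were higher and 0 lower in GMO Mitsui-7 lungs than in GMO control lungs. The median was 0.25 in WT and 0.00 in GMO rats, against 0.03 and -0.02 over all genes. Ido1, which breaks down tryptophan, was called higher in both (limma, adjusted p = 5.44e-05 and 0.00115). It was well above background in 5 of 6 WT Mitsui-7 and 3 of 6 GMO Mitsui-7 lungs, against 0 of 6 lungs of each control group, so that no size is given. Fcgr1a, a high-affinity receptor for IgG, rose by 1.12 and 1.02 and Serping1, the C1 inhibitor, by 1.21 and 0.82 (limma, largest adjusted p of the 4, 0.00737). Nos2, the inducible nitric oxide synthase, rose in WT rats by 1.24 and differed by 0.53 in GMO rats (limma, adjusted p = 0.00251 and 0.245), with 5 of 6 WT Mitsui-7 and 1 of 6 WT control lungs well above background. With NM-403 none of the 18 passed in either genotype. The share of all genes called higher was 8.42% in WT and 5.29% in GMO Mitsui-7 lungs, and the share called lower 5.56% and 6.29%.

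Of 17 tested genes of the type I interferon response, 8 were higher and 0 lower in WT Mitsui-7 lungs than in WT control lungs, with a median of 0.84. Ifit3 rose by 1.47, Oasl by 1.41, Usp18 by 1.32 and Mx1 by 1.30, all of them antiviral genes or, for Usp18, a brake on the interferon receptor (limma, largest adjusted p, 0.00145). Only 1 of 17 in GMO Mitsui-7 lungs, Usp18 at 0.61, was higher than in GMO control lungs and the median was 0.15. With NM-403 none passed in either genotype, with medians of 0.12 in WT and 0.11 in GMO rats. The counts differ between the genotypes, but the interaction called no gene of the array. The share of the list called in WT Mitsui-7 lungs stands beside the 8.42% of all genes given above.

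**Figure D4:**
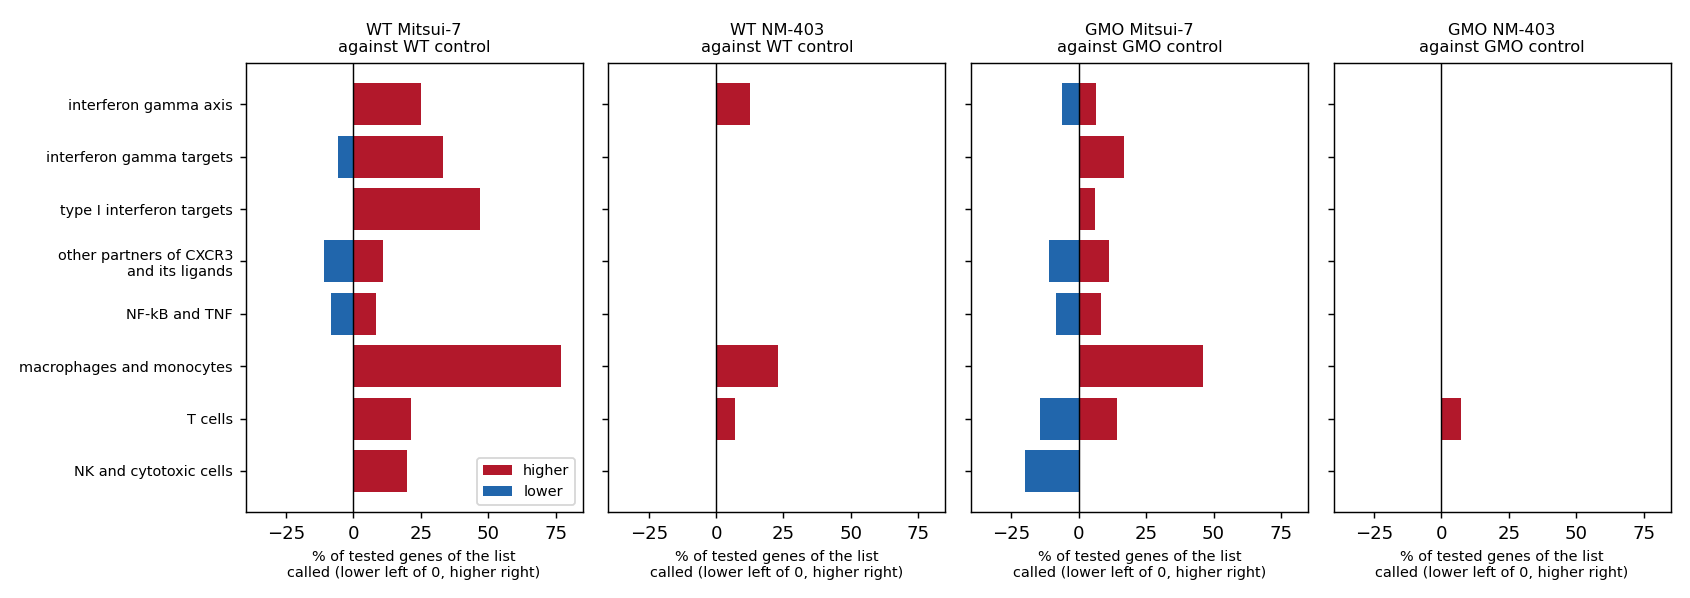
Share of the tested genes of 8 lists (rows) that were called higher (red, right of 0) or lower (blue, left of 0) in the 4 comparisons with control, in percent of the list on the horizontal axes. In WT Mitsui-7 lungs 8 of 17 type I interferon targets and 10 of 13 macrophage and monocyte markers were called higher, against 8.42% of all genes.

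Among 9 other genes whose products bind or process these ligands or share their receptors, 1 was higher and 1 lower with Mitsui-7 in each genotype. Pf4, a platelet and macrophage chemokine that binds a form of CXCR3 in man, rose by 0.78 in WT and 1.09 in GMO rats (limma, adjusted p = 5.76e-04 and 9.38e-06). Its level was 1.55 at the lowest, 1.61 at the median and 1.73 at the highest in WT Mitsui-7 lungs, against 0.62, 0.83 and 1.12 in WT control lungs, and the groups did not overlap. Dpp4, the peptidase that trims and inactivates the 3 ligands, fell by 0.60 in WT and by 0.43 in GMO rats (limma, adjusted p = 8.98e-04 and 0.0199). Ackr3, a scavenger receptor that takes up CXCL11, differed by -0.34 and -0.24 with Mitsui-7 and by -0.52 and -0.40 with NM-403, in WT and GMO rats in that order, and was called in none of the 4 comparisons (limma, smallest adjusted p, 0.0588). Of 12 genes of the NF-kB and TNF pathway, 1 was higher and 1 lower with Mitsui-7 in each genotype: Tnfrsf1b, a TNF receptor, rose by 0.73 and 0.63, and Rela, an NF-kB subunit, fell by 0.30 and by 0.35. The counts of both lists are near the share of all genes called, 8.42% higher and 5.56% lower in WT and 5.29% higher and 6.29% lower in GMO Mitsui-7 lungs. No gene of these lists passed with NM-403.

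Markers of the cells that bear CXCR3 were called in small part. Of 14 T cell genes, 3 were higher and 0 lower in WT Mitsui-7 lungs than in WT control lungs, and 2 were higher and 2 lower in GMO Mitsui-7 lungs than in GMO control lungs. Their median difference was 0.14 in WT and -0.30 in GMO rats, against 0.03 and -0.02 over all genes. Of all genes 8.42% and 5.29% were called higher, and 5.56% and 6.29% lower, in WT and GMO rats in that order. Icos, a costimulatory receptor of activated T cells, rose by 0.89 in WT and 0.75 in GMO rats with Mitsui-7 and by 0.69 and 0.84 with NM-403 (limma, largest adjusted p, 0.00372). Cd8b rose by 0.85 and Cd4 by 0.51 in WT Mitsui-7 lungs. In GMO Mitsui-7 lungs Cd4 rose by 0.54, while Lat, an adaptor of the T cell receptor, fell by 0.50 and Cd8a by 0.42 (limma, largest adjusted p of the 3, 0.0400). The summed T cell level ran from 1.64 to 2.10 in WT Mitsui-7 and from 1.33 to 1.88 in WT control lungs, and from 1.56 to 1.95 in GMO Mitsui-7 and from 1.46 to 2.27 in GMO control lungs, so the groups overlapped. Of 10 tested genes of natural killer and cytotoxic cells, 2 were higher in WT Mitsui-7 lungs, Xcl1 at 1.17 and Klrk1 at 0.64, and 2 were lower in GMO Mitsui-7 lungs, Prf1 at -0.69 and Gzma at -0.58. Their summed level ran from 1.14 to 1.96 in WT Mitsui-7 and from 1.53 to 1.94 in WT control lungs. Of these lists, 13 of 14 T cell genes and 9 of 11 cytotoxic genes were above background on all arrays. The part of these cells in the receptor's rise was not tested.

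Most macrophage and monocyte markers were called higher in WT Mitsui-7 lungs. Of 13 genes, 10 were higher in WT Mitsui-7 lungs than in WT control lungs, with a median of 1.08, and 6 in GMO Mitsui-7 lungs than in GMO control lungs, with a median of 0.71. In WT NM-403 lungs 3 were higher, and in GMO NM-403 lungs 0. The share of all genes called higher was 8.42% in WT Mitsui-7, 5.29% in GMO Mitsui-7, 2.30% in WT NM-403 and 1.27% in GMO NM-403 lungs. Itgam, an integrin chain of myeloid cells, rose by 2.35 in WT and 2.07 in GMO rats with Mitsui-7 and by 1.03 in WT rats with NM-403. The summed level ran from 3.15 to 4.01 in WT Mitsui-7, from 2.94 to 3.17 in WT NM-403 and from 2.45 to 2.72 in WT control lungs, so that both exposed groups lay above the controls. In GMO rats it ran from 3.21 to 3.90 with Mitsui-7, from 2.78 to 3.54 with NM-403 and from 2.56 to 3.11 in controls. Of the 13 genes, 12 were above background on all arrays and none was below background on every array.

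Markers of other cells were also called, epithelium and endothelium among them. Of 7 genes of club, goblet and ciliated cells, 5 were higher and 1 lower with Mitsui-7 in each genotype, and none was called with NM-403. Their summed level ran from 5.81 to 6.10 in WT Mitsui-7 and from 5.70 to 5.99 in WT control lungs, so the groups overlapped. Of 9 endothelial genes, 6 were lower with Mitsui-7 in each genotype and none was called with NM-403. Their summed level ran from 4.61 to 5.23 in WT Mitsui-7 and from 5.49 to 5.75 in WT control lungs, without overlap. In GMO rats it was at most 5.29 in Mitsui-7 lungs, against 5.56 to 5.77 in control lungs, again without overlap. Of 7 plasma cell genes, 4 were higher with Mitsui-7 and 3 with NM-403 in each genotype. Dendritic cell genes were higher for 5 of 9 in WT Mitsui-7 lungs, and 2 were higher and 1 lower in GMO Mitsui-7 lungs, with 1 of 9 higher in each NM-403 group. Of 9 neutrophil genes, 4 were called higher in WT NM-403 and 2 in GMO NM-403 lungs, while 0 were higher and 1 lower in each Mitsui-7 group. The summed neutrophil level ran from 3.16 to 4.56 in WT NM-403 and from 0.78 to 2.08 in WT Mitsui-7 lungs. In GMO rats it ran from 3.20 to 4.27 with NM-403 and from 1.37 to 2.82 with Mitsui-7. Single genes were compared between the materials in the fit, but that list as a whole was not tested. Alveolar type 1 genes were lower for 4 of 7 in WT and 3 of 7 in GMO Mitsui-7 lungs and for 1 and 2 with NM-403, and no alveolar type 2 gene was called with either material. Over all genes, 8.42% were called higher and 5.56% lower in WT Mitsui-7 lungs, and 5.29% and 6.29% in GMO Mitsui-7 lungs. With NM-403 these shares were 2.30% and 0.899% in WT and 1.27% and 0.253% in GMO rats.

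Genes of cardiac muscle and of erythroid cells were called in 1 direction in the 4 comparisons with control. Of 6 cardiac muscle genes, 4 were lower with Mitsui-7 in each genotype, and of 5 erythroid genes, 4 were lower in WT and 1 in GMO Mitsui-7 lungs. None of either list was called with NM-403. Of 8 eosinophil and mast cell genes, 3 were higher and 1 lower in WT and 2 higher and 1 lower in GMO Mitsui-7 lungs, and none was called with NM-403. Of 7 fibroblast and smooth muscle genes, 2 were higher and 1 lower in WT and 1 higher and 1 lower in GMO Mitsui-7 lungs, and none was called with NM-403. Of 6 mesothelial genes, 1 was higher and 3 lower in WT and 1 higher and 1 lower in GMO Mitsui-7 lungs, and 4 and 1 were lower with NM-403. Of 7 B cell genes, 1 was lower in GMO Mitsui-7 lungs and none was called in the other 3 comparisons. The shares of all genes called, given in the paragraph above, stand beside these counts. A count of 1 gene in lists this short is not read as a change of the list. The part of these cells, macrophages included, in the ligands' levels was not tested.

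**Figure D5:**
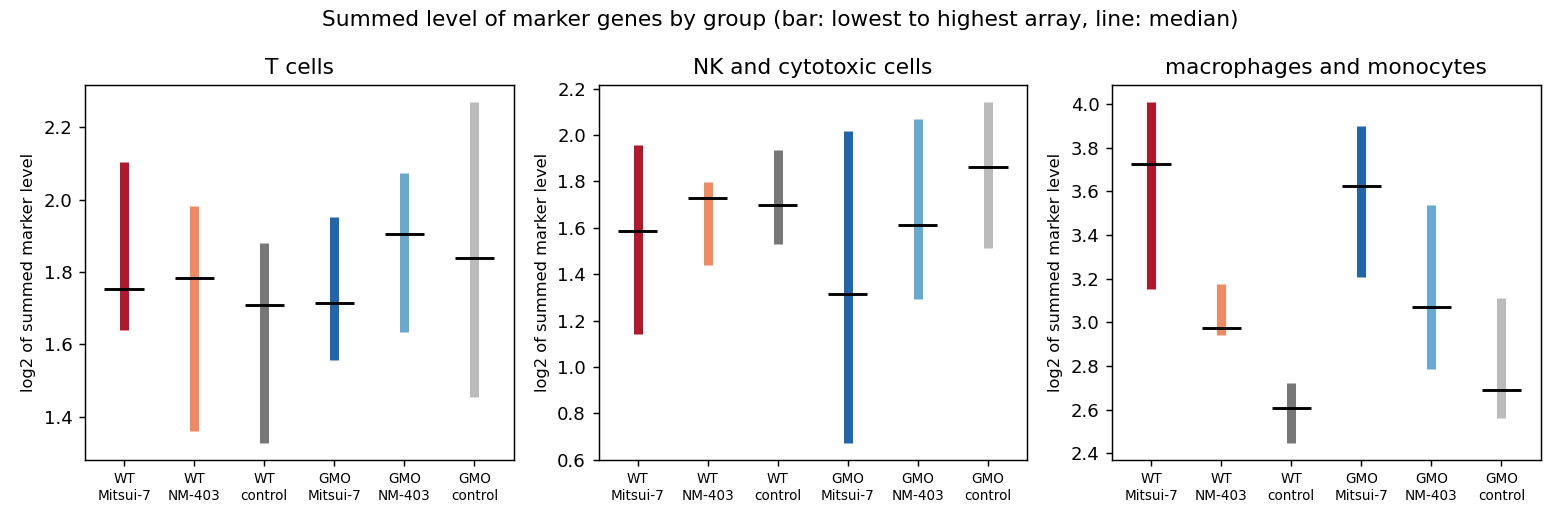
Log2 of the summed level of marker genes of T cells, of natural killer and cytotoxic cells and of macrophages and monocytes (vertical axes) in the 6 groups along the horizontal axes. Bars run from the lowest to the highest array and the line is the median; the T cell and cytotoxic bars of all groups overlap, and the macrophage bars of the Mitsui-7 groups lie above those of their controls.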

How the data were processed

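The authors deposited 1 scanner file per array, holding processed signal intensity written by Agilent Feature Extraction 12.0.1.1 (per the submitters' notes on processing), and a table of log2 values centred on each probe's median. The build and probe positions are as the file headers give them. Of 62976 spots, 4259 control spots were left out, outlier-flagged spots were dropped and spots of a probe averaged. Log2 processed signal was set relative to each array's 75th percentile over non-control spots. Where a name had several probes, the one of highest mean stood for the gene. Genes entered the tests with at least 5 arrays well above background and at least 3 measured values in each group (24468 genes, 146 missing values). All 35 arrays entered 1 limma fit (limma 3.58.1, R 4.3.3) with a mean per group. P-values were adjusted by Benjamini-Hochberg over all genes within each comparison, with a threshold of 0.05, and the fit was tested on simulated data. Labels give no shared animal or day for replicate numbers, and same-numbered arrays gave a mean correlation of 0.0297, so the numbers do not pair rats. The number of arrays limits the precision.

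The members and lists were chosen with earlier results of these data known. Genes were named by a rule: the 4 members, up to 4 called genes of each list with the largest change in each comparison with control, 6 further genes of the axis, and the 5 genes most similar to each member. Some genes that this rule names, and the gene altered in the GMO line, are not reported here. Lists of other cell types were summarised by counts. Alternatives covered background correction, scaling, filter, probe choice, slide, array weights, replicate block, the authors' log2 values and leaving out each array.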

Additional observations from a re-analysis of the deposited data

Results flagged for a closer look

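GMO control replicate 6 had a Cxcl9 level of -5.40 (log2, relative to the array's 75th percentile), far below the next lowest of the 6 GMO controls at -4.66. It was the only one of 24 gene and group combinations with an array so far from the others, by a 95% critical value that chance alone passes now and then. Without it the GMO Mitsui-7 difference in Cxcl9 was 0.87 (limma, adjusted p = 0.0350).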

How the results depend on the processing

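Every difference of a member that passed the test kept its direction under each alternative that held the gene. All but 1 kept the call: with the normexp background correction Cxcl9 differed by 0.58 in GMO Mitsui-7 against GMO control lungs (limma, adjusted p = 0.0656). In the comparisons with control Cxcl10 had 13 alternatives and each other member 12, and the authors' log2 values cover fewer genes. Each member has 1 probe, so the choice of probe could not change its values. With array weights 4 differences newly passed in limma: Cxcl9 in WT NM-403 lungs, 0.81 (adjusted p = 0.0437), Cxcl10 in GMO NM-403 lungs, 0.94 (adjusted p = 0.0462), and Cxcl11 in GMO NM-403 lungs, 1.92 (adjusted p = 0.00498), each against its control, and Cxcl9 in GMO Mitsui-7 against GMO NM-403 lungs, 1.1 (adjusted p = 0.0132). With slide as a random block Cxcr3 in WT NM-403 lungs passed at 0.55 (limma, adjusted p = 0.0482). The cause was not tested. Leaving out single arrays changed no member's call; Cxcl10 then ran from 3.52 to 3.88 in WT and from 2.57 to 2.86 in GMO Mitsui-7 lungs against control. Under normexp the uncalled Cxcl11 difference in GMO NM-403 lungs was -0.09. With the replicate number as a block, the WT Mitsui-7 difference was 1.30 for Cxcl9, 3.67 for Cxcl10, 4.59 for Cxcl11 and 0.75 for Cxcr3. These sizes could not change, because both groups hold the same replicate numbers once each. The block changed no member's call.

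The number of genes called depended more on the setting. It was 3419 in WT Mitsui-7 against control, 5431 and 5419 with slide as a fixed or random block, and 1744 in the authors' values, which cover fewer genes. In WT NM-403 it was 783, then 1892, 1901 and 491 in the same order, 1448 with array weights and 459 without WT NM-403 replicate 6. In GMO Mitsui-7 it was 2832, then 5521, 5146 and 1408, 5240 with array weights, 1802 with normexp and 1715 with only the groups compared. In GMO NM-403 it was 373, then 960, 981 and 163, 2393 with array weights, 191 with normexp, 145 with only the groups compared, and 227 to 618 without single arrays. Mitsui-7 against NM-403 gave 814 in WT, then 1538, 1542 and 315, 442 with normexp and 499 with only the groups compared, and 334 in GMO rats, then 507, 581 and 135, and 936 with array weights. The 2 genes called between GMO and WT Mitsui-7 became 0 to 25, and the Mitsui-7 interaction, with 0, called at most 2. Signal near background limits Cxcl11 in controls and with NM-403.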
